A study of Arabidopsis thaliana with 236 samples.

Results

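The 97 loci described here are those whose level in root cortex cells of Arabidopsis thaliana stood furthest above both other treatments after contact with the bacterium Sinorhizobium meliloti. They were chosen from 27143 loci on the cortex arrays alone. For each locus the same-hour differences, rhizobium minus standard and rhizobium minus nitrogen, were averaged over 13 hours, and the 100 loci with the largest smaller difference of the pair were taken. The rule named some loci to be left out, which removed 3 of the 100. These cortex differences chose the loci, so they are given as a description and carry no test. The tests of these loci use pericycle arrays and 0 h arrays, which had no part in the choice. Tests on cortex arrays are given only for other genes, from lists of pathways.

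The study compared wild-type Col-0 seedlings that had all grown for 9 days on low nitrate (0.1 mM KNO3) with 30 mM sucrose. In the rhizobium group S. meliloti culture at an OD600 of 0.8 was added. The nitrogen group was moved to 5 mM KNO3 and the standard group to fresh 0.1 mM KNO3, and the labels do not say whether the bacteria came with a fresh plate. The source names give an age of 12 days, which differs from the days of growth. Roots were turned into protoplasts and cortex or pericycle cells were isolated by fluorescence-activated sorting; the labels do not name the marker lines. Cells were taken at 0 h without treatment and at 1, 2, 4, 6, 8, 10, 12, 14, 16, 20, 24, 36 and 48 h, with 2 to 5 arrays in each of the 80 groups. Nothing in the labels ties replicates to separate plantings. The p-values therefore cover array-to-array spread only, and that spread may be technical.

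S. meliloti forms nitrogen-fixing nodules on legumes such as alfalfa, while Arabidopsis lacks several genes of the symbiosis pathway and forms no nodules. Its roots still meet soil bacteria with changes in immune, hormone and nutrient genes, and the cortex is the tissue in which legume nodules begin. The pericycle is the layer inside the endodermis from which lateral roots arise in Arabidopsis.

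Of the 97 loci, 34 have a gene name in the reference annotation that could be tied to a role or family, and 63 are given by identifier only. All 97 are annotated as protein coding. The named ones comprise 11 transcriptional regulators, 6 genes of hormone or peptide signalling, 5 transporters, 2 cell wall enzymes or proteins and 10 others, several of them linked to stress. These role groups, here and below, cover the named loci only, and loci given by identifier may have the same roles. They include both a synthesis enzyme and an activating enzyme of cytokinin (IPT5 and LOG1), the lipase that starts jasmonate synthesis (DAD1), and a pair of high-affinity phosphate transporters (PHT1;1 and PHT1;2). All values below are log2 signal, and differences are log2 differences.

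In cortex, the rhizobium arrays had a mean over the 97 loci of 9.62 ± 0.39 (SD, n = 38), against 7.84 ± 0.54 on nitrogen arrays (n = 32) and 7.51 ± 0.59 on standard arrays (n = 37). The 3 arrays at 0 h had means of 6.93, 7.19 and 9.15. The rhizobium arrays lay between 8.78 and 10.60, the nitrogen arrays between 6.95 and 9.01 and the standard arrays between 6.80 and 9.62, so the ranges overlapped. Of the 38 rhizobium arrays, 20 lay below the highest standard array and 1 below the highest nitrogen array. When the standard arrays described next as standing apart were left out, 0 lay below the highest standard array left. Those arrays stood apart by their likeness to cortex rhizobium arrays, so less overlap without them was favoured by that choice. Per locus the median difference was 1.79 against standard (1.30 to 4.56) and 1.63 against nitrogen (1.28 to 3.85). The nitrogen comparison gave the smaller difference for 67 loci and the standard comparison for 30. At the edge of the choice, AT2G31940, AT3G09032 and AT4G15120 had smaller differences of 1.29, 1.29 and 1.28, and the next loci, AAE12, AT3G55840 and AT2G02610, each had 1.28.

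Other measurements moved with these differences across cortex arrays or set libraries apart. The mean of 11 heat shock genes was 9.70 on rhizobium arrays, 9.94 on nitrogen arrays and 13.44 on standard arrays (8.30 to 11.60, 8.64 to 11.64 and 9.68 to 14.22). The mean of 12 markers of green tissue was 7.47 on rhizobium arrays (6.17 to 10.99), 9.25 on nitrogen arrays (6.59 to 13.45) and 9.08 on standard arrays (6.04 to 13.22). Between cell types, 11 endodermis markers averaged 8.49 to 9.02 on the pericycle treatments against 6.70 to 7.03 on the cortex treatments, and 7 pericycle and stele markers averaged 9.25 to 9.64 against 8.26 to 8.69, while only 3 cortex markers could be matched and they differed little (9.54 to 9.67 against 9.45 to 9.95). Epidermis and root hair markers, MYB66 among them, also averaged higher on the pericycle treatments (8.26 to 8.84 against 6.93 to 7.26). Phloem markers were higher there as well (6.57 to 6.91 against 6.13 to 6.30), and xylem markers slightly lower (6.51 to 6.61 against 6.80 to 6.89). Of all treated arrays, 54 (45 of pericycle and 9 of cortex) correlated best with the mean profile of another cell type or treatment. For 5 of these the gap to their own was above 0.3, namely pericycle nitrogen 14 h replicate 2, cortex nitrogen 2 h replicate 2, and cortex standard 2 h replicate 2, 4 h replicate 1 and 14 h replicate 2. The closest profile was cortex rhizobium for the pericycle nitrogen array and the cortex standard arrays, and pericycle rhizobium for the cortex nitrogen array. Leaving out standard arrays that resemble rhizobium arrays favours less overlap, so counts without them, here and below, are a description. The mean of the 97 loci was 10.20 on the pericycle nitrogen array and 7.71 on the cortex nitrogen array. It was 9.62, 9.00 and 8.40 on the cortex standard arrays of 2, 4 and 14 h. The heat shock mean on those 3 standard arrays was 10.95, 9.73 and 9.68, against 12.84 or more on the other cortex standard arrays. On the latter the mean of the 97 loci was 6.80 to 8.33. Without these 5 arrays 88 of the 97 loci were chosen again, and the median cortex difference was 1.94 against standard and 1.58 against nitrogen. With the heat shock mean as a covariate the medians were 1.80 and 1.63, with 95 and 97 loci above 0. These are again the differences that chose the loci. The few standard arrays in the heat shock range of the other groups were those set apart, so treatment and heat shock level cannot be told apart here. Over all loci that covariate took the calls against standard from 5913 higher and 4351 lower to 1862 and 1331. The part of the green tissue markers was not tested.

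**Figure D1:**
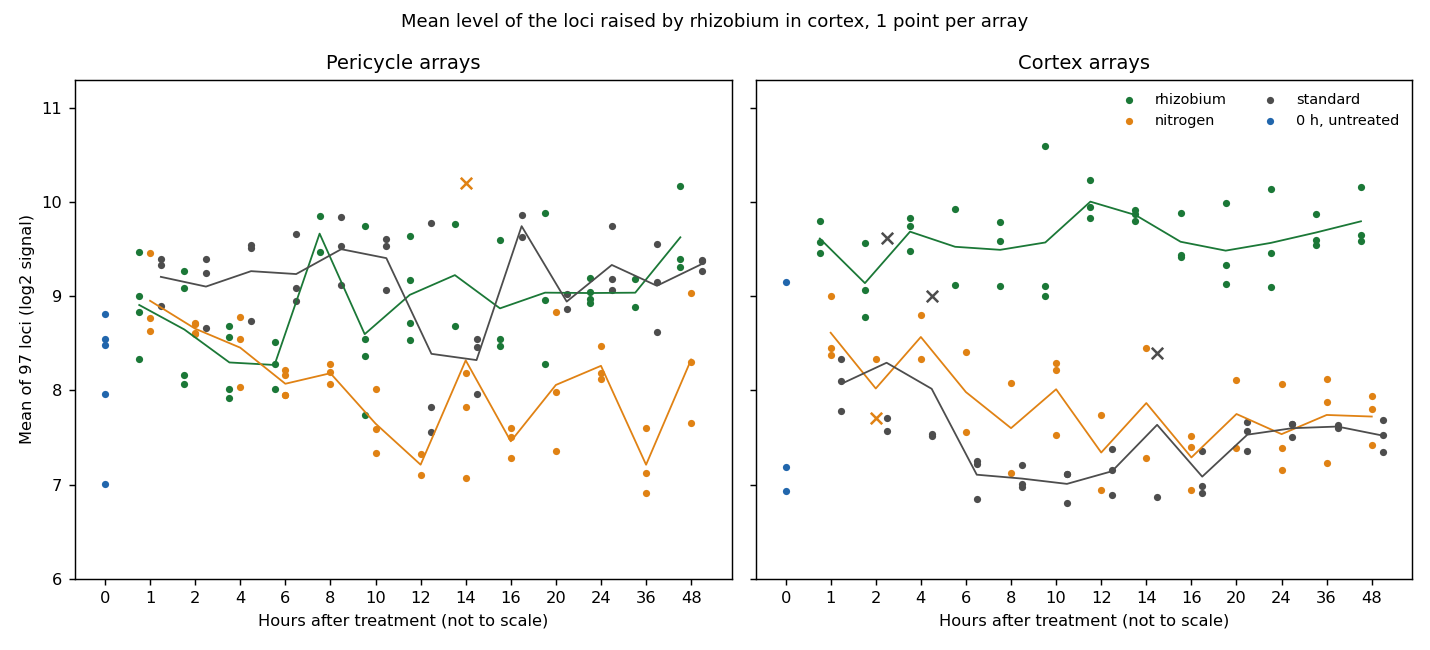
Mean log2 signal of the 97 loci on each array (points) by hour after treatment, with lines through the group means, in pericycle (left) and cortex (right). Crosses mark the 5 arrays whose profile correlated better with another cell type or treatment by more than 0.3; in cortex the rhizobium arrays lie between 8.78 and 10.60 at every hour, while in pericycle the nitrogen group mean is the lowest at every hour from 8 h on, though at 14 h (8.32) it equals the standard mean to that precision. Points of the groups are offset sideways.

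No locus of the 97 had every cortex rhizobium array above every standard array or every nitrogen array, as was true of all 27143 loci (0%). Without the arrays set apart there was still none, where 0.0737% of all loci had every rhizobium array above every standard array. The 12 loci with the largest smaller difference, given next, show a low signal near the bottom of the scale on most other arrays, or a moderate signal there.

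AT4G15990 had the largest smaller difference of all (2.94), with a difference of 4.56 against standard. Its levels were 4.34, 9.72 and 12.83 on cortex rhizobium arrays (lowest, median and highest), against 4.27, 4.75 and 12.30 on nitrogen arrays and 4.15, 4.31 and 11.49 on standard arrays. The typical rhizobium array was thus far above the typical array of the other groups, but some in every group were at the bottom of the scale and some near its top. Without the arrays set apart above, 32 of its 38 rhizobium arrays exceeded the highest standard array, against 7 with them.

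The neighbouring loci AT3G48346 and AT3G48344 both came among the highest. AT3G48346 had 4.54, 9.60 and 12.07 on cortex rhizobium arrays, against 4.37, 4.91 and 10.80 on nitrogen and 4.37, 5.37 and 11.54 on standard arrays, with differences of 3.83 against nitrogen and 2.86 against standard. AT3G48344 had 4.44, 9.94 and 12.28 on rhizobium arrays, against 4.37, 5.01 and 10.90 on nitrogen and 4.69, 7.15 and 10.76 on standard arrays, with differences of 3.85 and 2.37. In both, nitrogen arrays were the lowest as a rule, and the ranges overlapped almost entirely.

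AT3G43250 had 8.17, 10.15 and 11.85 on cortex rhizobium arrays, against 4.68, 7.20 and 10.92 on nitrogen arrays and 4.56, 6.53 and 11.09 on standard arrays. No rhizobium array was in the low range that most of the other arrays occupied. AT4G37700 had 4.77, 9.70 and 12.05 on rhizobium arrays, against 4.34, 5.22 and 11.42 on nitrogen arrays and 4.51, 5.68 and 10.99 on standard arrays. AT3G02620 had 5.46, 11.69 and 13.83, against 6.05, 9.51 and 11.60 and 5.95, 8.60 and 13.25 in the same order. For AT3G02620, 22 of 38 rhizobium arrays lay above the highest nitrogen array but only 2 above the highest standard array.

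Another 3 loci known by identifier reached a high signal. AT5G61890 had 8.79, 12.80 and 14.31 on cortex rhizobium arrays, against 5.36, 10.59 and 13.93 on nitrogen arrays and 5.59, 8.44 and 13.81 on standard arrays. AT2G34350 had 8.00, 11.52 and 13.35, against 5.50, 9.23 and 12.36 and 5.52, 9.21 and 12.92. AT3G47380 had 9.33, 12.02 and 13.17, against 5.95, 9.52 and 13.18 and 6.56, 8.57 and 13.43. All 3 were already well measured without the bacteria, and their highest standard and nitrogen arrays reached the rhizobium range.

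Among the 11 transcriptional regulators, NAC045 had the largest smaller difference (2.41). NAC045 is a NAC factor known for the loss of the nucleus in developing phloem sieve elements. Its levels were 4.67, 8.39 and 10.37 on cortex rhizobium arrays, against 4.39, 5.08 and 8.41 on nitrogen arrays and 4.41, 4.64 and 7.10 on standard arrays. Nearly all standard arrays were at the bottom of the scale, and 28 of 38 rhizobium arrays exceeded the highest of them. The mean of 7 phloem markers was 6.21 on rhizobium, 6.30 on nitrogen and 6.13 on standard arrays in cortex.

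bHLH39, a partner of the iron regulator FIT that is induced by iron deficiency, had 5.23, 8.18 and 12.19 on cortex rhizobium arrays, against 4.69, 6.09 and 10.20 on nitrogen arrays and 4.74, 5.85 and 11.45 on standard arrays. Its rhizobium arrays covered the whole range, so the median was raised while the ranges overlapped. NLP3, of the NIN-like family whose other members regulate nitrate responses, had 7.90, 11.11 and 12.81 on rhizobium arrays, against 6.57, 9.02 and 12.49 on nitrogen arrays and 7.95, 9.84 and 11.75 on standard arrays. For NLP3 the nitrogen arrays were the lowest group. AGL20, the flowering-time integrator also called SOC1, had 6.11, 9.74 and 11.55, against 5.59, 7.14 and 10.42 and 5.33, 7.03 and 10.34.

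The other 7 regulators were MYB61, MYB66, MYB74, NAC088, WRKY59, HB28 and BNQ3, with smaller differences between 1.34 and 1.68. MYB66, also called WEREWOLF, sets the non-hair fate in root epidermis and is one of 11 epidermal markers listed for checking the sort. The mean of those markers was 7.14 on rhizobium, 7.26 on nitrogen and 6.93 on standard cortex arrays. BNQ3 is a small helix-loop-helix protein that does not itself bind DNA.

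In hormone and peptide signalling, LOG1 stood highest, with a smaller difference of 2.2. LOG enzymes release active cytokinin from its nucleotide. LOG1 had 5.05, 10.30 and 12.85 on cortex rhizobium arrays, against 4.86, 7.76 and 11.44 on nitrogen arrays and 4.45, 6.98 and 12.12 on standard arrays. IPT5, an isopentenyltransferase of cytokinin synthesis, had 5.60, 9.03 and 11.09, against 5.24, 7.23 and 10.53 and 5.13, 7.44 and 10.58. Both cytokinin genes varied widely within every group.

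DAD1, a plastid lipase that releases the fatty acid from which jasmonate is made, had 6.80, 8.99 and 11.55 on cortex rhizobium arrays, against 4.89, 6.83 and 10.20 on nitrogen arrays and 4.89, 5.39 and 9.10 on standard arrays. The groups were ordered rhizobium, nitrogen and standard by their medians, and 18 of 38 rhizobium arrays exceeded the highest standard array (34 of 38 without the arrays set apart). JRG21, an oxygenase gene induced by jasmonate, had 7.32, 11.63 and 13.64, against 6.37, 9.59 and 13.33 and 5.79, 8.88 and 13.29. PSK6, a precursor of the growth peptide phytosulfokine, had 11.21, 13.10 and 14.05, against 9.36, 11.38 and 13.86 and 7.09, 9.55 and 13.64. The medians of PSK6 were in the same order as those of DAD1, with overlapping ranges. GA20OX5, an oxidase of gibberellin synthesis, had a smaller difference of 1.38.

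Among the transporters, SWEET17, a fructose carrier of the vacuole membrane, had the largest smaller difference (1.78). It had 8.07, 11.49 and 12.86 on cortex rhizobium arrays, against 6.89, 9.25 and 12.22 on nitrogen arrays and 4.55, 7.79 and 12.56 on standard arrays. NPF6.2, a nitrate transporter described in leaf petioles, had 8.43, 11.39 and 13.61, against 6.19, 9.89 and 11.94 and 5.44, 8.05 and 12.58. Both were lowest on standard arrays.

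The phosphate uptake transporters PHT1;1 and PHT1;2 lie close together on the chromosome and are near-identical in sequence, so probes may not separate them. PHT1;1 had 8.91, 10.36 and 11.86 on cortex rhizobium arrays, against 5.60, 8.29 and 12.73 on nitrogen arrays and 5.25, 8.56 and 12.14 on standard arrays. PHT1;2 had 9.23, 10.59 and 12.16, against 5.29, 8.57 and 12.87 and 5.28, 9.06 and 12.25. In both the rhizobium arrays formed a narrow band inside the wide range of the other groups. UMAMIT42, of a family of amino acid exporters, had a smaller difference of 1.33.

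The named wall genes were XTH33, which encodes an enzyme that cuts and rejoins xyloglucan, and EXPA17, an expansin known from lateral root emergence. XTH33 had 5.77, 9.02 and 12.10 on cortex rhizobium arrays, against 5.20, 6.35 and 9.85 on nitrogen arrays and 5.26, 6.56 and 10.52 on standard arrays. EXPA17 had 8.31, 10.93 and 11.72, against 6.54, 8.81 and 11.13 and 6.41, 7.79 and 11.44. The rest of the named loci were RD20, LEA7, MC5, PUB54, ARI3, ACR1, RGTA2, LCR43, PRK6 and GCL1, with smaller differences from 1.30 to 2.08. RD20 is a drought-induced caleosin and LEA7 a late embryogenesis abundant protein. LEA7 had one of the larger differences against standard (3.75) and a much smaller one against nitrogen (1.44).

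**Figure D2:**
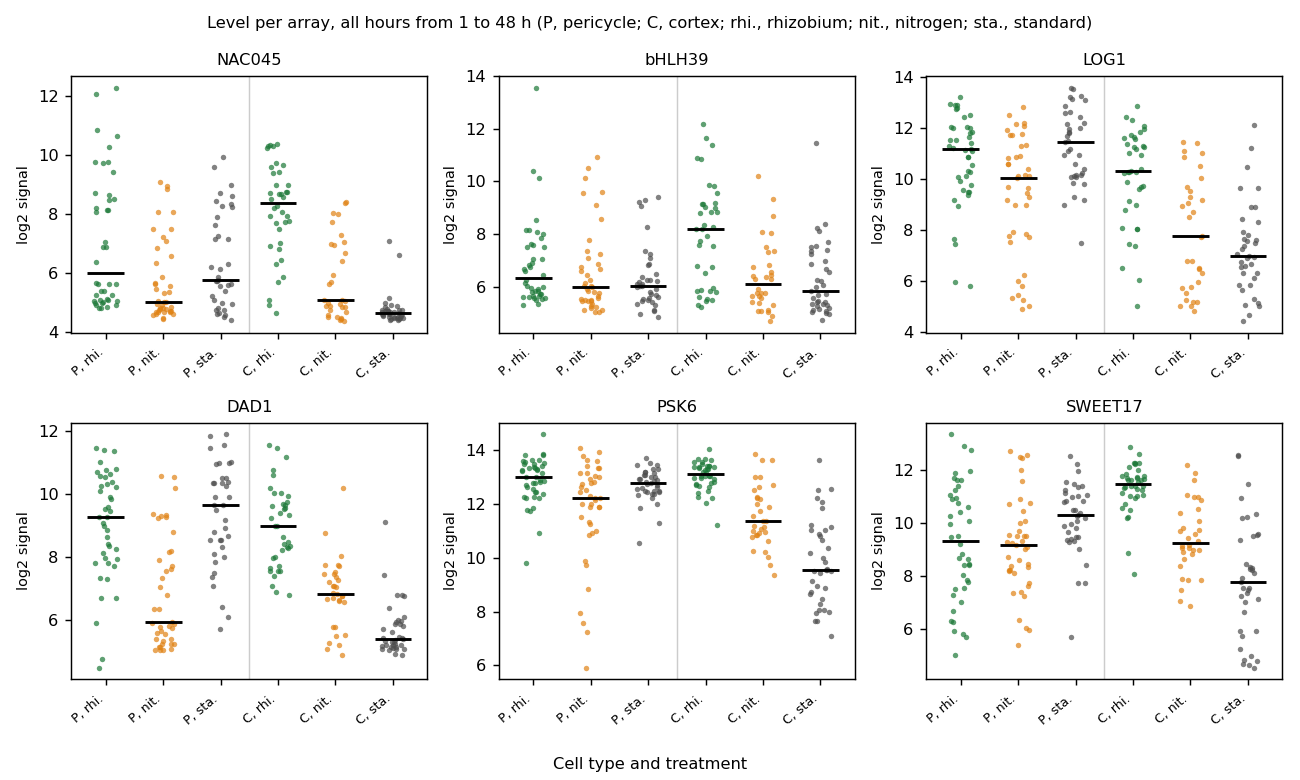
Log2 signal of 6 of the loci on every array from 1 to 48 h, by cell type and treatment, with black bars at the median. The cortex medians are highest with rhizobium for all 6 (DAD1 8.99 against 6.83 on nitrogen and 5.39 on standard arrays), while in pericycle the standard median of DAD1 (9.63) is above its rhizobium median (9.26).

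The difference in cortex was present through most of the time course. Both differences were above 0 at 10 or more of the 13 hours for 89 of the 97 loci, and the fewest was 7 hours. The median over the loci against standard was 1.6 at 1 h, 0.75 at 2 h and 1.74 at 4 h, lay between 2.14 and 2.73 from 6 to 16 h, and between 1.83 and 2.18 from 20 to 48 h. The median against nitrogen was 1.01 to 1.46 from 1 to 6 h and 1.6 to 2.75 from 8 h on. The mean of the 97 loci itself moved little with time on rhizobium arrays (9.49 over 1 to 6 h, 9.70 over 8 to 16 h and 9.63 over 20 to 48 h), whereas it was 8.33, 7.63 and 7.68 on nitrogen arrays and 7.87, 7.15 and 7.56 on standard arrays over the same windows. Without the arrays set apart the means were 8.41, 7.63 and 7.68 on nitrogen arrays and 7.58, 7.06 and 7.56 on standard arrays, so that the early and late standard values were then nearly the same.

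The largest smaller difference fell in the middle window (8 to 16 h) for 53 loci, in the late window (20 to 48 h) for 31 and in the early window (1 to 6 h) for 13. The early ones included 4 of the 11 named transcriptional regulators and none of the named hormone, transport, wall or stress genes. Most of the latter were in the middle window (17 of 23). NAC045 and bHLH39 had the largest early values, 2.79 and 2.74, which became 1.75 and 0.96 in the late window. AT4G15990 and LOG1 led in the middle window (3.84 and 3.42), and LOG1 had only 0.68 in the early one. AT3G48346 and AT4G37700 led in the late window (3.37 and 3.14).

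For 8 loci the smaller difference over 1 to 6 h was at or below 0: AT3G47380, MYB74, AT5G56840, AT3G14280, AT3G28580, WRKY59, EXPA17 and AT2G31940. AT3G47380 had -0.86 in the early window, 3.12 in the middle one and 2.90 in the late one. MYB74, from a family branch that answers to drought and salt, had -0.93, 2.03 and 1.68. SWEET17 began near 0 (0.10) and reached 2.85 in the late window. The reverse course was seen in AT1G68907, with 1.86, 1.09 and -0.34.

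**Figure D3:**
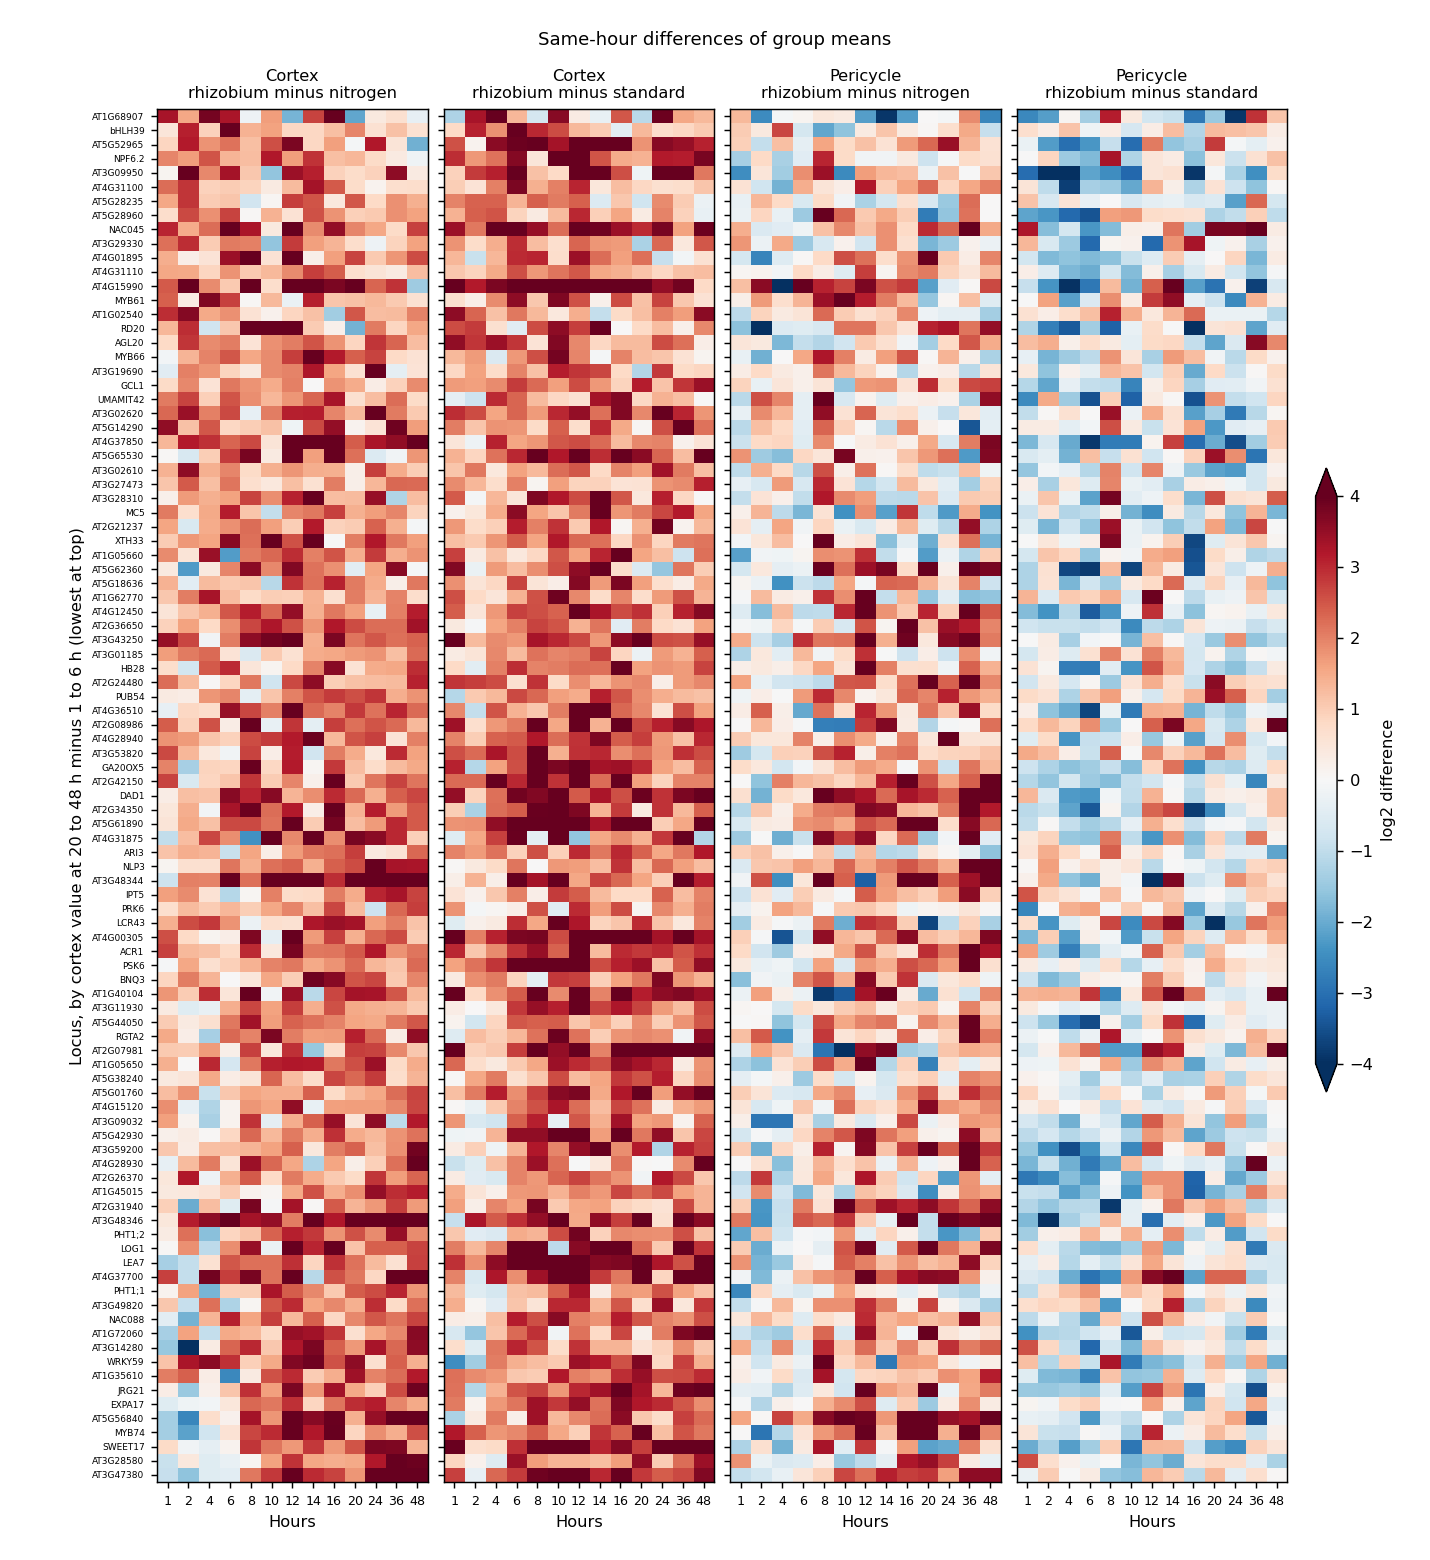
Same-hour log2 differences of group means for each of the 97 loci (rows, ordered by the late minus the early smaller difference in cortex) at 13 hours (columns), for rhizobium minus nitrogen and minus standard in cortex and pericycle. Red is higher with rhizobium. The cortex panels are red at most hours, and in pericycle red appears against nitrogen from 8 h on, with a median of 1.56 at 8 h after 0.03 at 6 h.

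In pericycle, arrays that had no part in the choice, few of the loci passed as higher with rhizobium than on the standard plates. Compared with standard, 3 of the 97 passed as higher and 9 as lower (limma, adjusted p below 0.05), where 13% of all loci passed as higher and 8.84% as lower. The median difference was -0.15, against 0.03 over all loci, and 37 loci were above 0. The share of loci that passed as higher was below the background and that of lower ones was near it. Without replicate 3 the counts were 0 and 3, and the shares of all loci fell as well, to 1.99% and 2.44%. With arrays centred on their median they were 6 and 7, while over all loci the median became 0.15 and the calls 5859 higher and 1333 lower, in place of 3536 and 2400.

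The 3 loci that rose in pericycle were AT1G40104, AT2G08986 and AT1G02540. AT1G40104 had 4.73, 7.19 and 12.82 on pericycle rhizobium arrays, 5.06, 7.16 and 12.20 on nitrogen arrays and 4.96, 5.88 and 10.77 on standard arrays, a difference from standard of 1.43 ± 0.44 (SE, adjusted p = 0.011). It was also higher on nitrogen than on standard arrays (1.32 ± 0.44, adjusted p = 0.021). AT2G08986 had 4.46, 5.96 and 12.39, against 4.32, 6.17 and 10.61 on nitrogen and 4.60, 5.49 and 9.24 on standard arrays, a difference from standard of 1.07 ± 0.36 (adjusted p = 0.020). AT1G02540 had 5.06, 5.97 and 10.62, against 4.76, 5.83 and 8.70 and 4.86, 5.52 and 8.74 (0.72 ± 0.27, adjusted p = 0.037). In all 3 the medians were in the lower part of the scale, and the highest arrays of every group lay well above them. High values were thus not confined to rhizobium arrays, since nitrogen arrays reached 12.20 for AT1G40104 and 10.61 for AT2G08986.

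The other loci with the largest positive pericycle differences from standard did not pass. AT3G53820 had 0.82 ± 0.35 (adjusted p = 0.080), NAC045 0.77 ± 0.36 (adjusted p = 0.12) and PUB54, a U-box protein, 0.76 ± 0.37 (adjusted p = 0.13). AT3G53820 had 4.91, 9.22 and 12.13 on pericycle rhizobium arrays, against 4.58, 7.50 and 11.43 on nitrogen and 5.11, 8.47 and 10.28 on standard arrays. PUB54 had 5.31, 8.51 and 11.52, against 5.07, 6.51 and 10.67 and 5.12, 7.56 and 10.47. In both the rhizobium medians were the highest and all ranges overlapped. NAC045 had 4.81, 6.03 and 12.29 on pericycle rhizobium arrays, against 4.46, 5.03 and 9.08 on nitrogen and 4.43, 5.78 and 9.93 on standard arrays. Its rhizobium arrays spread from the bottom of the scale to well above the other groups.

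The 9 loci that fell in pericycle were AT3G09950, AT4G37850, RD20, AT1G72060, AT2G26370, AT2G36650, AT4G31100, AT4G31110 and AT5G44050. AT3G09950 had 5.36, 7.05 and 14.03 on pericycle rhizobium arrays, against 4.88, 6.18 and 13.95 on nitrogen and 5.14, 9.86 and 14.32 on standard arrays, a difference from standard of -2.0 ± 0.45 (adjusted p = 0.00055). In cortex the same locus had 6.64, 10.80 and 14.04 on rhizobium arrays, against 5.40, 8.82 and 14.40 on nitrogen and 5.29, 7.65 and 13.72 on standard arrays. The medians thus lay in opposite orders against standard in the cell types, within ranges that overlapped fully.

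AT4G37850 had 4.68, 7.45 and 11.74 on pericycle rhizobium arrays, against 4.65, 6.77 and 10.96 on nitrogen and 5.23, 9.69 and 12.20 on standard arrays (-1.54 ± 0.37 from standard, adjusted p = 0.0012). RD20 had 4.92, 6.93 and 12.27, against 4.67, 5.80 and 12.11 and 4.84, 8.55 and 11.94 (-1.31 ± 0.46, adjusted p = 0.029). AT1G72060 had 5.47, 10.22 and 12.48, against 4.57, 10.03 and 11.85 and 8.18, 11.16 and 13.14 (-1.13 ± 0.40, adjusted p = 0.028). For AT1G72060 no standard array was in the low range that some arrays of the other groups reached.

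Compared with nitrogen, many of the loci rose in pericycle. Here 43 of the 97 passed as higher and 0 as lower, where 7.92% of all loci passed as higher and 6.24% as lower. The median difference was 0.82 against 0.03 over all loci, and 91 loci were above 0; 55 had an unadjusted p below 0.05 on the higher side and 0 on the lower side. With replicate 2 left out the count was 21 higher and 0 lower, where 2.64% and 2.0% of all loci passed. Without the 5 arrays set apart it was 46 and 0, where 8.26% and 6.76% did. This comparison and the one with standard share the rhizobium arrays.

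Nitrogen arrays were also below standard arrays. Of the 97 loci, 56 fell with nitrogen and 2 rose (AT1G40104 and PHT1;1), where 11.1% of all loci passed as lower and 8.52% as higher, and 19.6% in either direction. The median difference was -0.97 against 0.04 over all loci. For 37 loci both calls were made, rhizobium above nitrogen and nitrogen below standard, in comparisons that share the nitrogen arrays. For 4 the rhizobium arrays lay between, above nitrogen and below standard. No locus was called above both nitrogen and standard, and 31 passed in none of the 3 comparisons. Shares of all loci were not counted for these joint patterns, so the joint counts only describe the 97 loci.

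**Figure D4:**
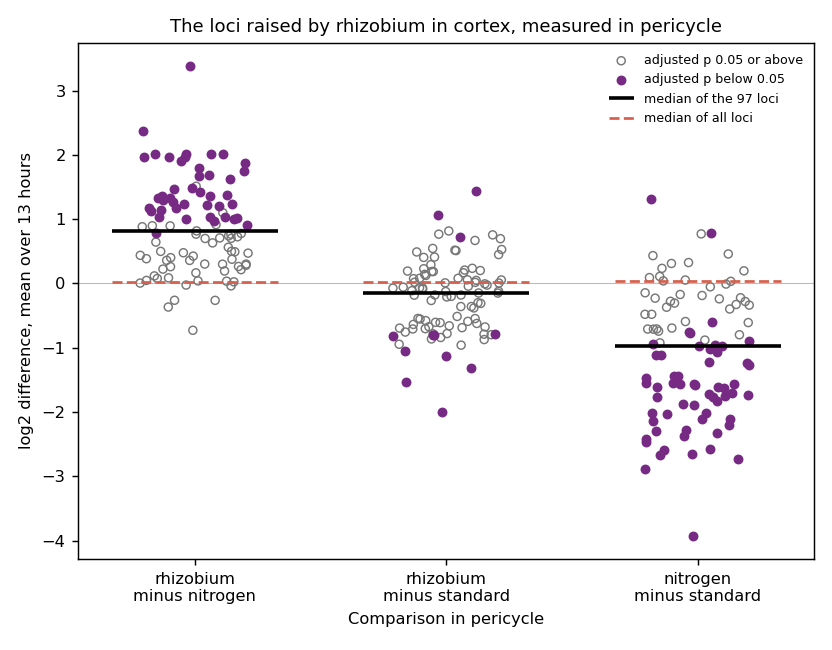
Log2 difference in pericycle, averaged over 13 hours, for each of the 97 loci (points; filled where the adjusted p is below 0.05) in 3 comparisons, with the median of the loci (solid bar) and of all loci (dashed). The median is 0.82 for rhizobium minus nitrogen, -0.15 for rhizobium minus standard and -0.97 for nitrogen minus standard.

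By role, 7 of the 11 regulators and 4 of the 6 hormone and peptide genes rose against nitrogen in pericycle, where 44.3% of the 97 loci and 7.92% of all loci did. None of the 5 transporters or 2 wall genes rose, groups too small to be set against the others. Of the other named loci, 5 of 10 rose, as did 27 of the 63 loci without a name. AT5G56840 had the largest difference (3.38 ± 0.35, adjusted p = 1e-13), with 5.37, 11.07 and 13.13 on pericycle rhizobium arrays, against 4.85, 6.55 and 11.87 on nitrogen and 9.16, 11.59 and 13.06 on standard arrays. Its standard arrays were all high, its rhizobium arrays mostly so, and its nitrogen median was near the bottom of the scale.

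DAD1 had 4.48, 9.26 and 11.44 on pericycle rhizobium arrays, against 5.04, 5.93 and 10.57 on nitrogen and 5.69, 9.63 and 11.89 on standard arrays. It rose by 2.37 ± 0.30 against nitrogen (adjusted p = 6.9e-10) and differed from standard by -0.20 ± 0.31 (adjusted p = 0.68). Only the nitrogen arrays were low. NLP3 had 8.76, 11.34 and 13.44 on rhizobium arrays, against 5.98, 9.23 and 12.46 on nitrogen and 8.87, 10.76 and 13.64 on standard arrays, and rose by 1.91 ± 0.24 against nitrogen (adjusted p = 3.5e-10). The low nitrogen level of NLP3 was thus seen in both cell types.

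LOG1 had 5.83, 11.16 and 13.22 on pericycle rhizobium arrays, against 4.90, 10.04 and 12.82 on nitrogen and 7.49, 11.45 and 13.58 on standard arrays (1.43 ± 0.44 against nitrogen, adjusted p = 0.017). IPT5 rose against nitrogen by 1.01 ± 0.29 (adjusted p = 0.0086) and PSK6 by 1.18 ± 0.25 (adjusted p = 0.00024). MYB74 rose by 1.68 ± 0.38 (adjusted p = 0.00080), NAC045 by 1.48 ± 0.36 (adjusted p = 0.0016) and MYB61, a regulator of stomata and of wall formation, by 1.33 ± 0.35 (adjusted p = 0.0038). JRG21 and GA20OX5 had 0.90 ± 0.39 and 0.74 ± 0.29 and did not pass (adjusted p = 0.10 and 0.070).

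The loci that did not pass against nitrogen included the phosphate transporters. PHT1;1 had 7.15, 9.71 and 12.13 on pericycle rhizobium arrays, against 7.55, 10.11 and 12.98 on nitrogen and 6.96, 9.32 and 11.97 on standard arrays (-0.26 ± 0.25 against nitrogen, adjusted p = 0.52). SWEET17 had 5.02, 9.35 and 13.36, against 5.43, 9.19 and 12.72 and 5.73, 10.32 and 12.53 (0.28 ± 0.37 against nitrogen, adjusted p = 0.66). The groups overlapped over nearly their whole ranges in both. bHLH39 had 0.21 ± 0.34 against nitrogen (adjusted p = 0.73), AGL20 0.09 ± 0.37 (adjusted p = 0.91) and XTH33 0.26 ± 0.31 (adjusted p = 0.62).

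Among the loci ranked highest in cortex that have no name, 7 of 9 rose against nitrogen in pericycle, where 44.3% of the 97 loci and 7.92% of all loci did. AT5G61890 had 10.33, 12.46 and 14.14 on pericycle rhizobium arrays, against 5.88, 10.75 and 13.70 on nitrogen and 8.48, 13.07 and 14.34 on standard arrays. AT2G34350 had 6.45, 9.94 and 12.97, against 5.02, 7.93 and 13.15 and 5.98, 11.27 and 12.47. AT3G48346 had 4.38, 10.56 and 12.92, against 4.42, 7.46 and 12.86 and 7.33, 10.35 and 12.36. In these 3 the nitrogen median was the lowest, with overlapping ranges. The difference from nitrogen of AT2G34350 was 2.02 ± 0.32 (adjusted p = 6e-07), that of AT5G61890 1.97 ± 0.34 (adjusted p = 6.4e-06), that of AT3G47380 1.68 ± 0.29 (adjusted p = 6e-06) and that of AT3G43250 2.01 ± 0.43 (adjusted p = 0.00030). AT3G48344, AT3G48346 and AT4G37700 had 2.01 ± 0.44, 1.87 ± 0.46 and 1.74 ± 0.45 (adjusted p = 0.00051, 0.0020 and 0.0033). AT4G15990 and AT3G02620 had 1.51 ± 0.59 and 0.70 ± 0.37 and did not pass (adjusted p = 0.070 and 0.20).

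The 43 loci that rose against nitrogen in pericycle had a median level of 9.92 on pericycle rhizobium arrays, 8.42 on nitrogen arrays and 10.47 on standard arrays, and the other 54 had 7.96, 7.55 and 8.37. In cortex the smaller differences of the 43 had medians of 0.99, 2.01 and 1.71 over the early, middle and late windows, and those of the 54 had 1.04, 1.79 and 1.52. The loci that moved in pericycle were thus strongly measured there on standard plates, and their course in cortex was much like that of the others.

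By hour, the median rhizobium minus nitrogen difference in pericycle lay between -0.11 and 0.04 from 1 to 6 h and between 0.62 and 1.86 from 8 to 48 h, when 67 to 85 of the loci were above 0. The nitrogen minus standard median was -0.18 at 1 h, -1.15 at 6 h and -2.30 at 16 h, and 0.06 at 14 h, where the array set apart lies. The mean of the 97 loci on pericycle nitrogen arrays was 8.51 ± 0.41 over 1 to 6 h, 7.84 ± 0.77 over 8 to 16 h and 7.97 ± 0.66 over 20 to 48 h (SD, n = 14, 15 and 12). On rhizobium arrays it was 8.55 ± 0.49, 8.99 ± 0.65 and 9.18 ± 0.49 (n = 15, 15 and 12). These courses are a description, since the windows of this comparison were not tested.

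Against standard, the early window differed in pericycle. Over 1 to 6 h, 16 of the 97 loci fell and 0 rose, where 9.04% of all loci passed as lower and 14.1% as higher, and the median was -0.62 against 0.04 over all loci. Those that fell included AT3G09950 (-3.63), AT5G28960 (-2.76), AT5G44050 (-2.24), RD20 (-2.17) and SWEET17 (-1.72). Over 8 to 16 h 0 passed (6 higher and 3 lower at an unadjusted p below 0.05), where 0.0295% of all loci passed as higher and 0.0626% as lower, 0.0921% in all. Over 20 to 48 h NAC045 alone passed (3.0 ± 0.67, adjusted p = 0.040), where 0.0847% of all loci passed as higher, 0.0884% as lower and 0.173% in either direction.

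The late minus the early rhizobium response in pericycle had a median of 0.66, and 0 loci passed (14 higher and 1 lower at an unadjusted p below 0.05), where 0.00368% of all loci passed as higher and 0.00368% as lower, 0.00737% in all. The early fall is therefore not shown to differ from the late response for any single locus. Without replicate 3, 6 loci fell over 1 to 6 h, where 1.18% of all loci passed as lower. The call of NAC045 over 20 to 48 h was lost without any one of replicates 1, 2 and 3.

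The pericycle arrays differed in endodermis markers over the same hours. Their mean over 1 to 6 h was 9.45 ± 1.63 on rhizobium arrays, 9.23 ± 1.5 on nitrogen arrays and 8.23 ± 1.07 on standard arrays (SD, n = 15, 14 and 12), with ranges of 6.98 to 11.39, 6.81 to 11.19 and 6.51 to 9.86. Over all hours 3 of the 11 markers passed as higher with rhizobium against standard, and 1 as lower against nitrogen. The mean of the 97 loci and the endodermis mean had a Pearson correlation of -0.57 over the 42 pericycle rhizobium arrays, -0.24 over 41 nitrogen arrays and -0.35 over 37 standard arrays, as a description of arrays that share hours and sorts. With the endodermis mean as a covariate, 10 loci fell and 1 rose over 1 to 6 h, where 6.13% of all loci passed as lower and 12.3% as higher. Against nitrogen over all hours 45 then rose, where 8.2% of all loci did. Also, 6 of 10 epidermis markers other than MYB66 rose in pericycle against standard, with a mean of all 11 of 8.84 (7.24 to 10.58), against 8.26 (6.76 to 9.64). In sorted bulk RNA, fewer cells of a type and less RNA per cell cannot be told apart.

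Between cell types, the difference varied with the treatment group. On rhizobium arrays the loci were lower in pericycle than in cortex, with a median difference of -0.79 and 25 of 97 higher in pericycle. On nitrogen arrays the median was 0.20, with 62 higher, and on standard arrays 1.77, with 81 higher. The mean of the 97 loci was 8.89 ± 0.60 on pericycle rhizobium arrays (n = 42), 8.10 ± 0.69 on nitrogen arrays (n = 41) and 9.14 ± 0.55 on standard arrays (n = 37). The pericycle standard arrays were thus close to the rhizobium arrays of both cell types, and the cortex standard arrays stood low. These values include the cortex arrays of the choice and are a description. The heat shock mean was 10.23 on pericycle standard, 9.85 on pericycle rhizobium and 9.73 on pericycle nitrogen arrays. In cortex it was 13.44, 9.70 and 9.94 in the same order, so the group that stood low was the one with high heat shock genes. The part of heat shock level in this pattern was not tested.

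At 0 h, before any treatment, 7 loci were higher in pericycle than in cortex and 1 was lower, where 5.84% and 5.18% of all loci passed in those directions. The median was 0.45 against 0.10 over all loci. AT3G48346 had 9.22, 13.40, 10.36, 11.16 and 12.09 on the 5 pericycle arrays, against 4.94, 4.91 and 8.07 on the 3 cortex arrays (5.27 ± 1.49, adjusted p = 0.013). All pericycle arrays lay above all cortex arrays. PSK6 had 8.43, 13.13, 12.81, 13.14 and 12.14, against 6.93, 9.09 and 12.00 (2.59 ± 0.81, adjusted p = 0.024), and its ranges overlapped, since pericycle replicate 1 lay below 2 of the 3 cortex arrays. The others that were higher were AT5G56840, AT3G28580, AT5G01760, AT3G11930 and AT4G15120, and AT5G28960 was lower.

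These 0 h calls rest on the spread shared by all groups. With the 0 h arrays alone 0 loci passed, where 0.118% of all loci passed as higher and 0.14% as lower. With cortex replicate 3 left out 15 were higher and 0 lower, where 3.79% and 3.96% of all loci passed. That array had a mean over the 97 loci of 9.15, against 6.93 and 7.19 on the others, and a heat shock mean of 10.14, against 12.85 and 13.76.

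Several of the loci lie side by side. In 8 pairs, which hold 16 loci, at most 2 other loci of the array lay between them. The group means of the pair correlated, over 80 groups, at 0.93 for AT3G02620 and AT3G02610, 0.92 for PHT1;2 and PHT1;1, 0.90 for AT2G08986 and AT2G07981, 0.85 for AT1G05650 and AT1G05660, 0.81 for AT4G31110 and AT4G31100, 0.79 for AT3G48346 and AT3G48344, 0.60 for AT4G28940 and AT4G28930, and 0.55 for AT4G37700 and PSK6. Neighbours that are related copies can share probe signal, which these files cannot separate. Over the 39 treated cortex groups, single loci correlated with the mean of the 97 at 0.31 to 0.92, with a median of 0.72. The loci outside the 97 most like that mean were SR1 (0.88), IAA19 (0.87) and AT2G28400 (0.86). SR1 had differences of 0.79 against standard and 0.66 against nitrogen, and IAA19, an auxin-induced repressor, 1.16 and 0.76.

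Genes of the pathways to which the named loci belong were counted from lists that leave out the 97 loci. In cortex 21.8% of all loci rose and 16.0% fell with rhizobium against standard, and 7.60% rose and 7.21% fell against nitrogen; these comparisons share the rhizobium arrays. Of 15 cytokinin response genes, 2 rose and 3 fell against standard and 0 rose and 3 fell against nitrogen (medians -0.09 and -0.35). ARR6, a response regulator induced by cytokinin, rose by 1.29 ± 0.33 against standard (adjusted p = 0.00073), while CKX5, which degrades cytokinin, fell by 0.69 against nitrogen (SE 0.19, adjusted p = 0.0050). Most genes on the list passed in neither direction.

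Of 17 genes of jasmonate synthesis and response, 5 rose and 1 fell against standard in cortex and 7 rose and 0 fell against nitrogen (medians 0.08 and 0.30). AOC1, an allene oxide cyclase, rose by 1.53 ± 0.23 against standard (adjusted p = 1.4e-08), and the lipoxygenase LOX3 by 1.01 ± 0.21 against nitrogen (adjusted p = 0.00011). In pericycle 10 of the 17 rose and 0 fell against nitrogen, and 0 rose and 2 fell against standard, where DAD1 likewise rose against nitrogen and did not pass against standard.

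Of 12 nitrogen starvation genes, 3 rose and 0 fell against standard in cortex, 7 rose and 0 fell against nitrogen, and in pericycle 11 rose and 0 fell against nitrogen (median 1.05). LHT1, an amino acid importer, rose by 2.18 ± 0.18 against nitrogen in cortex (adjusted p = 7e-21), and DUR3, a urea transporter, by 2.92 ± 0.36 in pericycle (adjusted p = 2.8e-10). Of 23 nitrate-induced genes, 1 rose and 14 fell against nitrogen in cortex and 1 rose and 13 fell in pericycle, including the repressor gene LBD39 (-1.95 ± 0.20 in cortex, adjusted p = 2.1e-14). Against standard 7 rose and 8 fell in cortex, and 3 rose and 0 fell in pericycle.

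Of 14 phosphate starvation genes other than PHT1;1, 3 rose and 1 fell against standard in cortex, and 4 rose and 1 fell against nitrogen. PLDP2, a phospholipase D, rose by 1.61 ± 0.26 against nitrogen (adjusted p = 5.6e-07) and the phosphate sensor gene SPX1 by 1.89 ± 0.36 against standard (adjusted p = 4.9e-06). Of 15 iron deficiency genes other than bHLH39, 7 rose and 0 fell against standard and 3 rose and 0 fell against nitrogen. BHLH101, which acts with bHLH39, rose by 1.46 ± 0.26 against standard (adjusted p = 8.7e-07), and the iron transporter gene IRT2 by 1.34 ± 0.24 (adjusted p = 1.2e-06). In pericycle 1 of the 15 rose and 0 fell against standard, and 0 passed against nitrogen.

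Of 32 immune genes, 4 rose and 10 fell against standard in cortex and 4 rose and 0 fell against nitrogen. In pericycle 10 rose and 2 fell against standard and 12 rose and 1 fell against nitrogen. In cortex YLS9, also called NHL10, rose by 2.5 ± 0.34 against standard (adjusted p = 3.1e-10). CYP81F2, of indole glucosinolate metabolism, fell there by 2.06 (SE 0.34, adjusted p = 1.5e-07). Of 25 auxin response genes, 12 rose and 1 fell against standard in cortex, and 6 rose and 2 fell against nitrogen. IAA2 rose by 1.94 ± 0.11 against standard (adjusted p = 1.4e-37).

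In the other lists the counts against nitrogen in cortex were as follows. Of 18 ethylene genes 1 rose and 0 fell, of 13 hypoxia genes 1 rose and 3 fell, of 14 sulfur starvation genes 3 rose and 0 fell, of 15 phenylpropanoid genes 1 rose and 6 fell, of 8 touch and wounding genes 2 rose and 0 fell, and of 11 heat shock genes 0 rose and 0 fell. Against standard the counts in the same order were 1 and 4, 2 and 0, 1 and 7, 2 and 2, 2 and 4, and 0 and 11. With the heat shock mean as a covariate, 48 in place of 103 list genes passed against standard in cortex. The lists include the heat shock genes whose mean is that covariate. The shares of all loci fell as well, from 21.8% to 6.86% higher and from 16.0% to 4.9% lower.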

How the data were processed

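The authors deposited log2 values, for which the submitters' processing notes name RMA; its software version is not given in the sources used here. NimbleGen arrays on the TAIR10 release carried Cy3-labelled, amplified RNA, per the labels' protocols. The 31524 rows were averaged to 27143 loci, without further scaling or filter. Within-group pairs above r = 0.995 were counted as 1 array (1 pair, 235 of 236 arrays left). Samples were grouped by title. The number of arrays limits the precision.

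limma 3.58.1 in R 4.3.3 was fitted to all 80 groups with 1 mean each; contrasts average same-hour differences, and calls have a Benjamini-Hochberg adjusted p below 0.05 over all loci. The fit was tested on simulated data. Tables were made with Python 3.11.15. Same-numbered replicates had mean residual correlations of -0.019 to 0.018 for numbers 1 to 3 and -0.087 for the single pair numbered 4, and were not taken as paired.

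The loci and gene lists (immune, auxin, cytokinin, ethylene, jasmonate, hypoxia, phosphate, iron, nitrogen starvation, nitrate-induced, sulfur, phenylpropanoid, heat shock, touch, and cell type markers) were chosen with earlier results of these data known. Values in full are given for the 12 loci highest by the rule, the 6 highest and 4 lowest in pericycle rhizobium minus standard, the 2 highest per window and, for pathway lists, up to the 3 largest calls; other loci with full values were added to show the role groups, after their values were seen. Names came from RefSeq's annotation (TAIR10.1), which holds 26555 of the loci; 4 list entries whose name belongs to another gene there were dropped. Alternatives were scaling, row choice, dim loci, shared spread, replicate block, array weights, covariates and arrays left out.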

Additional observations from a re-analysis of the deposited data

Results flagged for a closer look

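In the 5 pericycle arrays at 0 h, 1 array stood far from the others for 2 of the 8 loci called between cell types. AT5G56840 had 6.55 on pericycle replicate 1 and 11.77 to 12.28 on the other 4 arrays, a gap of 0.911 of the whole range. PSK6 had 8.43 on the same array and 12.14 to 13.14 on the others, a gap of 0.788. That array also had the lowest mean of the 97 loci in its group, 7.01, against 7.96 to 8.81 on the others. Without it 10 loci passed as higher and 2 as lower at 0 h, where 8.45% and 6.94% of all loci did. Chance flags about 1 in 20 such groups.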

How the results depend on the processing

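Under the alternatives, 149 values of the main counts stayed within 1.5 times and 24 did not. The choice of the 97 loci kept 36 when made on rhizobium minus standard alone and 48 on rhizobium minus nitrogen alone, and 70 to 78 without 1 replicate. In pericycle against standard, 12 loci passed, 19 with array weights and 3 to 9 without 1 replicate; against nitrogen, 43 passed and 21 to 37 without 1 replicate. For nitrogen against standard, 58 passed and 41 to 50 without 1 replicate. Over 1 to 6 h, 16 passed and 6 to 15 without 1 replicate; over 8 to 16 h, 0 passed and 1 with the endodermis mean as a covariate, an alternative chosen after seeing the data. Over 20 to 48 h, 1 passed, and 0 with arrays centred on their median, with pericycle arrays only, with the heat shock mean as a covariate, and 0 without replicate 1, 2 or 3. At 0 h, 8 passed, 0 with the 0 h arrays only, 5 with the heat shock covariate, 4 to 6 without 1 replicate and, as alternatives chosen after seeing the data, 1 with the endodermis covariate and 15 without cortex replicate 3. Over all loci, too, fewer passed without 1 replicate in the comparisons over all hours, over 1 to 6 h and at 0 h. Of the list genes, 103 passed against standard in cortex and 48 with the heat shock covariate. The shares of all loci fell there too, from 21.8% to 6.86% higher and from 16.0% to 4.9% lower. In the other comparisons 69 passed against nitrogen in cortex, 56 against standard in pericycle and 74 against nitrogen in pericycle, and without 1 replicate these counts were 37 to 50, 16 to 55 and 40 to 75. With the heat shock covariate LSU2 and WRKY40, both lower against standard in cortex, had log2 differences of 0.44 and 0.0023, which did not pass. The cause was not tested. Replicate numbers did not pair the arrays; with a replicate block 11, 45 and 58 loci passed in the 3 pericycle comparisons over all hours, and no main count moved by over 1.5 times. The named genes gave 1442 values with the same call, 188 that no longer passed and 2 that reversed. Values low on the scale are limited by background, which the deposited table does not give.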
